A study of Mus musculus with 4 samples.

Results

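The genes described here are 9 that handle extracellular ATP and adenosine. They were chosen by name for that function, with earlier results of these data known. They include the ectonucleotidase genes *Entpd1* and *Nt5e* and the adenosine receptor genes *Adora2a*, *Adora2b* and *Adora3*. The others are the adenosine clearance genes *Ada*, *Dpp4* and *Slc29a1*, and the ATP receptor gene *P2rx7*. All 9 are among the 25239 gene symbols listed in each library, and all 9 passed the filter on low counts. RNA-Seq was performed on CD4+ T cells isolated from lung tumors, with 2 libraries from WT C57BL/6 mice and 2 from CD4/ALK4-KO mice, whose genotype is CD4CreERT2+/-/Acvr1bfl/fl on the same background. Every mouse had received 500000 LLC-OVA cells, Lewis lung carcinoma cells that express ovalbumin, by the intravenous route, and the labels place the excision of the tumors at 18 to 22 days, while the methods give another range for the deletion experiment. The mice were males of 8 to 10 weeks. In CD4/ALK4-KO mice tamoxifen, given at 75 mg/kg in each of 5 doses, switches on a Cre recombinase driven by the mouse *Cd4* promoter, which removes *Acvr1b*, the gene of the activin receptor ALK4. Deletion is thus directed at cells in which the *Cd4* promoter is active around the time of dosing. The paper calls the WT mice of the deletion experiment littermates of the CD4/ALK4-KO mice. Whether WT mice received tamoxifen, or whether several mice were pooled per library, is not given in the sources used here.

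ATP is kept inside healthy cells and leaks or is exported from stressed, dying or activated ones. Outside the cell it acts as a danger signal on P2X and P2Y receptors, of which P2X7 is a ligand-gated channel with a low affinity for ATP. CD39, the product of *Entpd1*, strips phosphates from ATP and ADP to give AMP, and CD73, the product of *Nt5e*, converts AMP to adenosine. Adenosine acts on G protein-coupled receptors, among which the products of *Adora2a* and *Adora2b* raise cAMP and dampen T cell activation, whereas that of *Adora3* lowers cAMP. The signal ends when adenosine is taken up by the equilibrative transporter ENT1 (*Slc29a1*) or deaminated to inosine by adenosine deaminase (*Ada*), which binds to CD26 (*Dpp4*) on the T cell surface. In tumors, CD39 and CD73 on regulatory T cells, exhausted T cells, myeloid and stromal cells are known as sources of adenosine.

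Of the 9 genes, 5 were higher in CD4/ALK4-KO than in WT libraries at an adjusted p under 0.05 in edgeR's quasi-likelihood test with TMM scaling, namely *P2rx7*, *Adora2a*, *Nt5e*, *Dpp4* and *Entpd1*, while on a scale set by T cell receptor complex genes all 9, these 5 included, were lower. On the T cell receptor scale 93.3% of the 13919 genes tested were lower, and on the TMM scale 17.4% were higher. With edgeR on the TMM scale, none of the 9 passed the threshold for a lower level, beside 15.4% of all genes tested. None did with DESeq2 either, and 1 gene, *Adora2b*, was lower at an unadjusted p under 0.05 in edgeR on the TMM scale. The values of the groups did not overlap for 8 of the 9 genes, the exception being *Adora3*, against 66.7% of all genes tested. No log2 fold change of the 9 genes reversed when any single library was left out. Fewer genes, both of these 9 and of all genes tested, passed the threshold without WT replicate 1 or WT replicate 2. The median log2 fold change of the 9 genes was 0.73, and that of all genes tested was -0.008. Levels below are CPM, counts per 1000000 counts of the TMM-adjusted library size, given per library or, for each genotype, as mean ± SD (n = 2). Adjusted p-values are those of edgeR over all genes tested.

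The total counts ranged from 11823908 to 13943237 per library. The targeted gene *Acvr1b* had 426 and 342 counts in the WT libraries and 322 and 445 in the CD4/ALK4-KO libraries. On the TMM scale its log2 fold change was 0.16 (SE 0.245, adjusted p = 0.66, edgeR) and the groups overlapped, so that it did not separate the labelled genotypes. On the T cell receptor scale it was -2.18 (adjusted p = 5.4e-13, edgeR), where 93.3% of all genes tested were lower. Counts are summed over the whole gene, so loss of a part of it was not examined. Directions are therefore given between libraries as labelled. *Cd4* was at 55.3 and 47.9 CPM in the WT libraries and at 307 and 326 CPM in the CD4/ALK4-KO libraries. All 16 T cell markers were higher in CD4/ALK4-KO libraries, with a summed level of 547 to 606 CPM in WT and 3060 to 3090 CPM in CD4/ALK4-KO and a median log2 fold change of 2.40. All 9 B cell markers were also higher (65.6 to 78.3 against 251 to 492 CPM), as were all 7 CD8 and NK markers (158 to 190 against 605 to 760 CPM) and 6 of 7 regulatory T cell markers (134 to 158 against 633 CPM in both). Of 12 macrophage markers 2 were higher and none lower with edgeR (2 lower at an unadjusted p under 0.05, none lower with DESeq2), and their sum was 2060 to 2560 CPM in WT and 1970 to 2150 CPM in CD4/ALK4-KO. Of 8 fibroblast markers 4 were lower (6720 to 7330 against 3970 to 4790 CPM), of 8 epithelial markers 5 were lower and 2 higher (962 to 982 against 504 to 639 CPM), and of 8 endothelial markers 2 were lower and 1 higher (72.0 to 84.6 against 128 to 146 CPM). The higher gene was *Pecam1*, which leukocytes also use, at 22.5 and 42.6 against 106 and 108 CPM, and the median log2 fold change of the 8 was -0.60. The sums of the 8 neutrophil markers (950 to 1470 against 957 to 1550 CPM) overlapped between the groups, and 2 of them were higher, while 1 of 6 mast cell markers was higher (23.8 to 39.6 against 46.6 to 58.4 CPM). No marker of these lists was at 0 in any library. The libraries thus held transcripts of several cell types besides CD4+ T cells, and in such bulk samples fewer cells of a type cannot be told apart from less RNA per cell. The part of this cell composition in the differences described below was not tested.

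**Figure D1:**
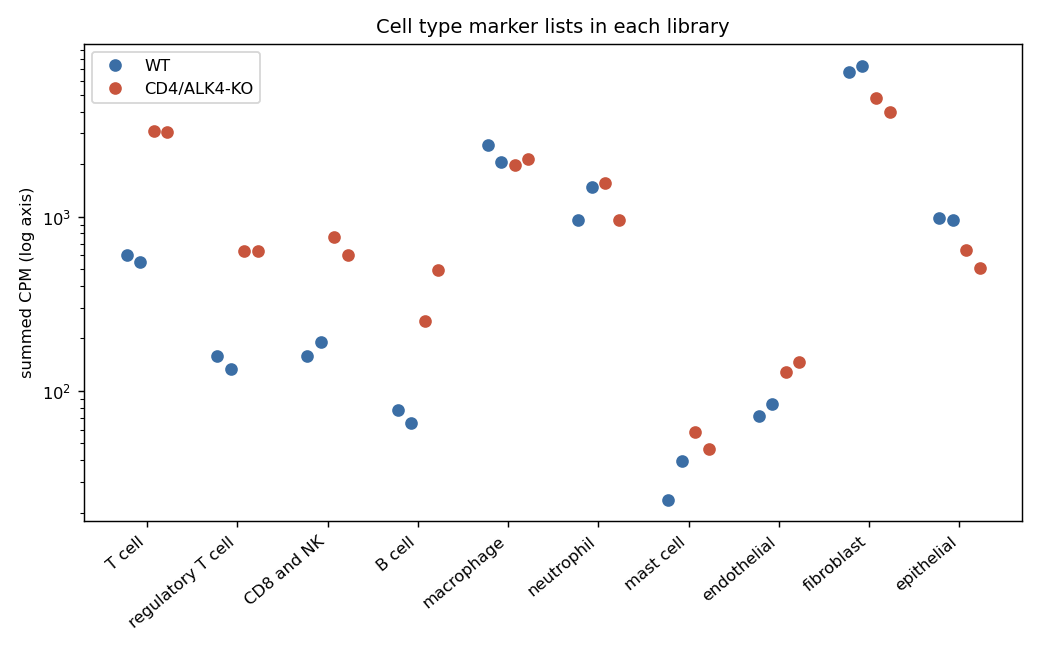
Summed CPM of 10 cell type marker lists (log axis) in each WT (blue) and CD4/ALK4-KO (red) library. The T cell list stood at 547 to 606 CPM in WT and 3060 to 3090 CPM in CD4/ALK4-KO, whereas the macrophage sums overlapped and the fibroblast sums were lower in CD4/ALK4-KO.

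*P2rx7* (chromosome 5, 122643911 to 122691432, GRCm38) had the largest fold change of the 9 genes. P2X7 opens to cations when ATP is abundant, and on T cells it can lead to shedding of surface proteins and to cell death. The gene had 253 and 262 counts in the WT libraries and 762 and 813 in the CD4/ALK4-KO libraries, or 18.4 and 19.4 CPM against 64.0 and 65.8 CPM. Replicates lay close together and the groups were far apart. The log2 fold change was 1.78 (SE 0.225, adjusted p = 2.9e-06, edgeR), a 3.43-fold higher level, with a 95% interval of 1.31 to 2.24. Leaving out any single library gave values from 1.75 to 1.83, all past the threshold. The upper end of the interval lay below 2.40, the median of the 16 T cell markers, but the values of some of these markers lay inside it. A difference between *P2rx7* and these markers was not tested. Reads from all transcripts of *P2rx7* are summed in these counts, and RefSeq lists 2 start sites for it. The exons of *P2rx7* share 119 bp, or 1.99% of their length, with the microRNA gene *Mir8115* on the same strand.

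The ectonucleotidase pair was also higher in CD4/ALK4-KO libraries. *Nt5e* (chromosome 9, 88327197 to 88372092), the gene of CD73, had 726 and 754 counts in WT and 1464 and 1387 in CD4/ALK4-KO libraries, or 52.9 and 55.7 against 123 and 112 CPM. Both CD4/ALK4-KO libraries stood well above both WT libraries. Its log2 fold change was 1.11 (SE 0.212, adjusted p = 0.00034, edgeR), a 2.16-fold higher level with a 95% interval of 0.68 to 1.55, and it kept its side of the threshold without any single library (1.08 to 1.18). *Entpd1* (chromosome 19, 40612366 to 40741602), the gene of CD39, had 1135 and 1232 counts in WT and 1850 and 1645 in CD4/ALK4-KO libraries, or 82.7 and 91.0 against 155 and 133 CPM. The groups did not overlap, but the gap between the CD4/ALK4-KO libraries was wider than for *Nt5e*. Its log2 fold change of 0.73 (SE 0.211, adjusted p = 0.010, edgeR) had a 95% interval of 0.29 to 1.17. The call for *Entpd1* was lost without WT replicate 1 (0.66, adjusted p = 0.21, edgeR) and without WT replicate 2 (0.80, adjusted p = 0.096, edgeR).

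**Figure D2:**
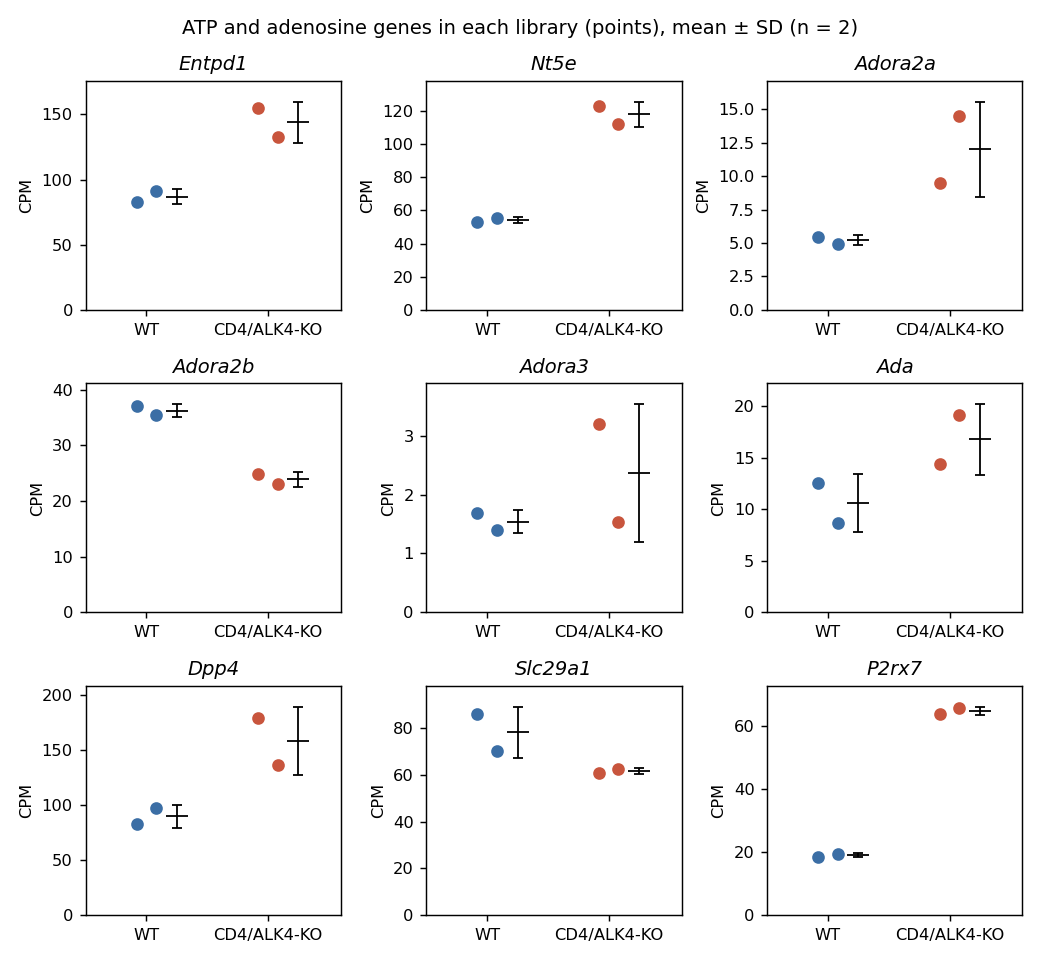
CPM of the 9 genes in each library (points; WT blue, CD4/ALK4-KO red) with mean ± SD (n = 2), each panel with its own axis from 0. The groups overlapped for *Adora3* only, and *P2rx7* stood at 18.4 and 19.4 CPM in WT against 64.0 and 65.8 CPM in CD4/ALK4-KO.

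Among the adenosine receptors, the 2 that raise cAMP had fold changes of opposite sign on the TMM scale, whereas both were lower on the T cell receptor scale. *Adora2a* (chromosome 10, 75316877 to 75334784) encodes a high-affinity receptor, the main adenosine receptor of T cells. It had 75 and 67 counts in WT and 113 and 179 in CD4/ALK4-KO libraries, or 5.47 and 4.95 against 9.48 and 14.5 CPM. The WT libraries were alike, and CD4/ALK4-KO replicate 2 was well above replicate 1. The log2 fold change was 1.20 (SE 0.331, adjusted p = 0.0076, edgeR), a 2.30-fold higher level with a 95% interval of 0.52 to 1.89. The call was lost without WT replicate 1 (1.27, adjusted p = 0.061), WT replicate 2 (1.13, adjusted p = 0.086) or CD4/ALK4-KO replicate 2 (0.86, adjusted p = 0.054), all with edgeR, and the value was 1.5 without CD4/ALK4-KO replicate 1.

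*Adora2b* (chromosome 11, 62248984 to 62266453) encodes the low-affinity A2B receptor, which is known from myeloid, epithelial and stromal cells. It had 508 and 479 counts in WT and 296 and 284 in CD4/ALK4-KO libraries, or 37.0 and 35.4 against 24.8 and 23.0 CPM. Replicates were close and the groups did not overlap, with the lower level in CD4/ALK4-KO libraries. Its log2 fold change of -0.60 (SE 0.234, adjusted p = 0.053, edgeR) lay just outside the threshold, with a 95% interval of -1.08 to -0.11, and it passed the threshold with upper quartile scaling (-0.67, adjusted p = 0.036, edgeR) and without CD4/ALK4-KO replicate 1 (-0.63, adjusted p = 0.046, edgeR). *Adora3* (chromosome 3, 105870858 to 105908926), the A3 receptor gene, had only 23, 19, 38 and 19 counts in WT replicates 1 and 2 and CD4/ALK4-KO replicates 1 and 2. CD4/ALK4-KO replicate 1 alone stood above the rest. The log2 fold change of 0.61 (SE 0.566, adjusted p = 0.44, edgeR) had a 95% interval of -0.56 to 1.78, and it was 0.026 without CD4/ALK4-KO replicate 1. On the TMM scale a difference in *Adora3* was thus not shown, whereas on the T cell receptor scale its log2 fold change was -1.74 (adjusted p = 0.0057, edgeR). Its exons share 779 bp, or 20.9% of their length, with *Tmigd3* on the same strand, so that reads there could be assigned to neither gene. *Adora1*, the remaining adenosine receptor gene, had 8, 8, 5 and 8 counts in the same order and did not pass the filter.

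Of the clearance genes, 1 passed the threshold. *Dpp4* (chromosome 2, 62330073 to 62412231) encodes CD26, a surface peptidase that anchors adenosine deaminase on T cells. It had 1128 and 1311 counts in WT and 2137 and 1677 in CD4/ALK4-KO libraries, or 82.2 and 96.8 against 179 and 136 CPM. The groups did not overlap, and the CD4/ALK4-KO libraries differed more from each other than the WT libraries did. Its log2 fold change was 0.82 (SE 0.219, adjusted p = 0.0065, edgeR), a 1.76-fold higher level with a 95% interval of 0.36 to 1.27, and its call was lost without WT replicate 1 (0.70, adjusted p = 0.18, edgeR). *Ada* (chromosome 2, 163726584 to 163750239) had 173 and 117 counts in WT and 171 and 237 in CD4/ALK4-KO libraries, or 12.6 and 8.64 against 14.4 and 19.2 CPM. The gap between the nearest WT and CD4/ALK4-KO libraries was smaller than the gap between the WT replicates. The log2 fold change of 0.66 (SE 0.294, adjusted p = 0.091, edgeR) did not pass the threshold on the TMM scale with all 4 libraries. It was past it without CD4/ALK4-KO replicate 1 (0.88, adjusted p = 0.011, edgeR), and was 0.41 without WT replicate 2. *Slc29a1* (chromosome 17, 45585200 to 45599606), the ENT1 gene, had 1179 and 953 counts in WT and 725 and 775 in CD4/ALK4-KO libraries, or 85.9 and 70.4 against 60.9 and 62.7 CPM. Both CD4/ALK4-KO libraries were below both WT libraries, but WT replicate 2 was nearer to them than to WT replicate 1. The log2 fold change was -0.34 (SE 0.215, adjusted p = 0.24, edgeR), with a 95% interval of -0.79 to 0.11. Antisense genes cover 3.67% of the exons of *Dpp4* and 6.86% of those of *Slc29a1*, and without a stated strand option reads there cannot be assigned to either strand.

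When library sizes were set by the summed counts of 7 genes of the T cell receptor complex (*Cd3d*, *Cd3e*, *Cd3g*, *Cd247*, *Lck*, *Zap70* and *Lat*) in place of TMM, the fold changes moved by a median of -2.36 (log2) over all genes tested. All 9 genes were then lower in CD4/ALK4-KO libraries at an adjusted p under 0.05 in edgeR, as were 93.3% of all genes tested, and their median log2 fold change was -1.64 against -2.37 for all genes tested. *P2rx7* was nearest to 0, at -0.58 (SE 0.291, adjusted p = 0.049, edgeR). For each 1000 counts of the T cell receptor genes there were 60.6 and 73.0 counts of *P2rx7* in the WT libraries and 42.4 and 47.0 in the CD4/ALK4-KO libraries. *Adora2a* was at -1.14 and *Nt5e* at -1.25, with 174 and 210 *Nt5e* counts per 1000 in WT against 81.4 and 80.1 in CD4/ALK4-KO libraries. *Dpp4* (-1.56), *Entpd1* (-1.64), *Ada* (-1.68) and *Adora3* (-1.74) followed. *Slc29a1* (-2.69) and *Adora2b* (-2.96) were lowest, and *Adora2b* had 122 and 133 counts per 1000 in WT against 16.5 and 16.4 in CD4/ALK4-KO libraries.

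**Figure D3:**
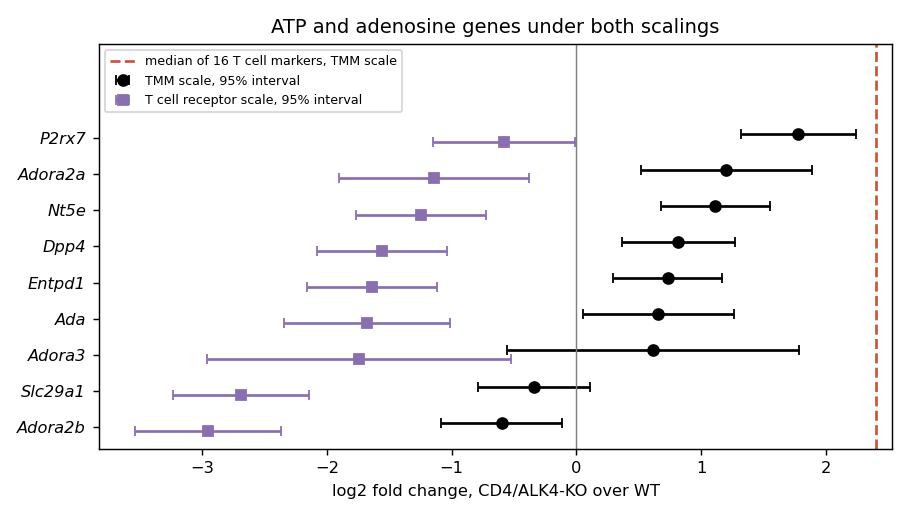
Log2 fold changes of the 9 genes, CD4/ALK4-KO over WT, with 95% intervals on the TMM scale (circles) and on the T cell receptor scale (squares). *P2rx7* was at 1.78 and -0.58 and *Adora2b* at -0.60 and -2.96, and no circle reached the dashed line at 2.40, the median of the 16 T cell markers. The spread of these markers is not drawn.

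The ratio of 2 genes within 1 library does not depend on how libraries are scaled, so 5 pairs were set side by side. *Adora2a* had 0.148 and 0.140 counts per *Adora2b* count in the WT libraries and 0.382 and 0.630 in the CD4/ALK4-KO libraries. This ratio did not overlap between the groups, and its difference of 1.77 on the log2 scale was larger than the widest gap between replicates (0.72). There were 0.640 and 0.612 *Nt5e* counts per *Entpd1* count in WT and 0.791 and 0.843 in CD4/ALK4-KO libraries, a difference of 0.39 on the log2 scale beside a widest replicate gap of 0.091. *Entpd1* had 4.49 and 4.70 counts per *P2rx7* count in WT and 2.43 and 2.02 in CD4/ALK4-KO libraries. *Slc29a1* had 1.62 and 1.26 counts per *Nt5e* count in WT and 0.495 and 0.559 in CD4/ALK4-KO libraries. The balance of these pairs differed by more than the replicates did. The 5 pairs were picked from many possible ones, and how often other pairs of genes differ in this way was not examined. Each difference follows from the fold changes of its 2 genes given above, so it is not separate evidence. *Ada* per *Dpp4*, the enzyme and its anchor, overlapped between the groups, at 0.153 and 0.0892 in WT and 0.0800 and 0.141 in CD4/ALK4-KO libraries. With 2 libraries against 2, an exact permutation test of a ratio cannot give a p below 0.333, and none was run.

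**Figure D4:**
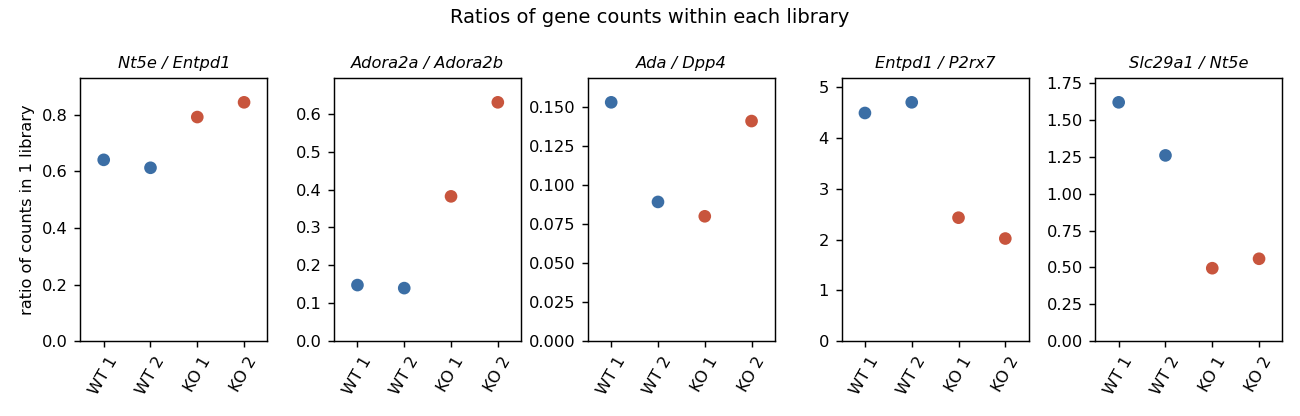
Ratios of the counts of 5 gene pairs within each library (WT blue, CD4/ALK4-KO, marked KO, red), each panel with its own axis from 0. *Adora2a* per *Adora2b* was 0.148 and 0.140 in WT and 0.382 and 0.630 in CD4/ALK4-KO libraries, while *Ada* per *Dpp4* overlapped.

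Levels of different genes were compared as CPM per kb of exon. In WT libraries the order was led by *Adora2b* (19.6 ± 0.635 CPM per kb) and *Slc29a1* (19.5 ± 2.75), which overlapped. *Entpd1* (15.6 ± 1.05) and *Dpp4* (14.2 ± 1.63) followed and also overlapped, as did *Nt5e* (6.31 ± 0.227) and *Ada* (5.31 ± 1.40). *P2rx7* (3.17 ± 0.107), *Adora2a* (1.70 ± 0.120) and *Adora3* (0.413 ± 0.0519) were lowest and did not overlap. In CD4/ALK4-KO libraries *Entpd1* (25.8 ± 2.81 CPM per kb) and *Dpp4* (24.9 ± 4.89) were highest and overlapped. They were followed by *Slc29a1* (15.4 ± 0.328), then by *Nt5e* (13.7 ± 0.875) and *Adora2b* (13 ± 0.714), which overlapped. *P2rx7* (10.9 ± 0.217), *Ada* (8.37 ± 1.70), *Adora2a* (3.91 ± 1.15) and *Adora3* (0.634 ± 0.313) came last, without overlap. The ectonucleotidase *Entpd1* and the enzyme anchor *Dpp4* thus stood above the receptors per length in the CD4/ALK4-KO libraries, whereas the A2B receptor and the transporter led in WT.

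The 250 bases before the start site are shown for 4 of the genes, the gene with the largest fold change on the TMM scale (*P2rx7*), the CD39 gene (*Entpd1*), both at the first of their 2 listed starts, *Dpp4*, and *Adora2b* as the receptor with a value below 0. They are taken from RefSeq on GRCm38.p6, whose promoter table matched 8 of the 9 genes, and are read 5′ to 3′ along the gene. Capitals mark CAGAC or its reverse complement GTCTG, the core letters bound by SMAD proteins, the transducers of activin receptors, and this match was the only use made of the sequences.
P2rx7, chr5:122643677-122643926, plus strand: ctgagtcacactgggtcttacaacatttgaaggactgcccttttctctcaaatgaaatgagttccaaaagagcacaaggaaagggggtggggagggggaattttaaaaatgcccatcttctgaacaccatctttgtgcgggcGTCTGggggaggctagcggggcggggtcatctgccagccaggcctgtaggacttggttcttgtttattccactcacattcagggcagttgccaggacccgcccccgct
Entpd1, chr19:40612116-40612365, plus strand: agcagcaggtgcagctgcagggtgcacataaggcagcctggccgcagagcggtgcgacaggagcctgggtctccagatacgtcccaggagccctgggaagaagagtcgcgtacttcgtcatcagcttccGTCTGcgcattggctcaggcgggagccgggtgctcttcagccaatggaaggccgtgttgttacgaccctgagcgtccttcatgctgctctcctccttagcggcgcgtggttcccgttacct
Dpp4, chr2:62412232-62412481, minus strand: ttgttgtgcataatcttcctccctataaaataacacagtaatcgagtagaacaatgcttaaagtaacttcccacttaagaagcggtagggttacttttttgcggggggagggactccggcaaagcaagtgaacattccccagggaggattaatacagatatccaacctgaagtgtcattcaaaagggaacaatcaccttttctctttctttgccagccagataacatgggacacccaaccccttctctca
Adora2b, chr11:62248734-62248983, plus strand: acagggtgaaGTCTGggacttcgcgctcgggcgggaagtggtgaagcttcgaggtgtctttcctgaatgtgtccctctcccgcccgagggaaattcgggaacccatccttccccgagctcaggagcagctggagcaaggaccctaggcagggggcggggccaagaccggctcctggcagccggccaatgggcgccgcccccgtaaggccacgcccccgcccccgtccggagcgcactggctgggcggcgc
The windows of *P2rx7*, *Entpd1* and *Adora2b* each held 1 copy and that of *Dpp4* held 0. The window of the other listed start held 2 copies for *P2rx7* and 1 for *Entpd1*. Among 32851 promoter windows of this length 42.2% held at least 1 copy. The NFAT core GGAAA stood once in the window shown for *P2rx7* and was not in that of its other start, while *Entpd1* held 0 at the start shown and 2 at the other. It stood 2 times in the window of *Adora2b*, and 55.6% of all windows held at least 1. The cAMP response element TGACGTCA (1.55% of all windows) and the hypoxia element core ACGTG (16.6%) were in none of the 4. These matches are descriptions of letters, and occupancy was not measured in these libraries.

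The other genes of the pathway were taken from lists of 62 genes, of which 54 passed the filter. On the TMM scale 13 of them were higher and 4 lower in CD4/ALK4-KO libraries at an adjusted p under 0.05 in edgeR, beside 17.4% and 15.4% of all genes tested. On the T cell receptor scale none was higher and 51 were lower, where 93.3% of all genes tested were lower. As for all genes tested, fewer of these 54 passed the threshold without WT replicate 1 or WT replicate 2, and more were lower without CD4/ALK4-KO replicate 2. Their median log2 fold change was 0.12 on the TMM scale.

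Among 5 genes linked to ATP release, 2 were higher and 1 lower on the TMM scale. On the T cell receptor scale none of them was higher and 4 were lower. *Slc17a9*, which encodes the vesicular nucleotide transporter that loads ATP into vesicles, was at 4.30 and 3.40 CPM in WT and 14.9 and 15.7 CPM in CD4/ALK4-KO libraries (log2 fold change 1.99, SE 0.321, adjusted p = 5.8e-05, edgeR). *Panx1*, the gene of the ATP-permeable channel pannexin-1, was at 18.4 and 17.2 against 27.6 and 33.9 CPM (log2 fold change 0.79, SE 0.253, adjusted p = 0.019, edgeR), and its call was lost without WT replicate 1 (0.84, adjusted p = 0.15), WT replicate 2 (0.74, adjusted p = 0.18) or CD4/ALK4-KO replicate 2 (0.63, adjusted p = 0.052). *Gja1*, which encodes the gap junction protein connexin-43 and is abundant in fibroblasts, was lower, at 773 and 850 against 238 and 199 CPM (log2 fold change -1.89, SE 0.22, adjusted p = 9.7e-07, edgeR). Of the 8 fibroblast markers 4 were lower, with a median log2 fold change of -0.66 for the list. The part of fibroblast content in the difference in *Gja1* was not tested.

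Of 9 other ecto-enzymes tested, only *Art2b* passed the threshold with edgeR, on the TMM scale. It encodes a T cell ADP-ribosyltransferase that can activate P2X7 from extracellular NAD, and had 40 and 62 counts in WT against 337 and 331 in CD4/ALK4-KO libraries (log2 fold change 2.88, SE 0.309, adjusted p = 3.8e-07, edgeR). Its counts are uncertain because a near-identical paralog can share its reads, and on the T cell receptor scale it did not pass the threshold (adjusted p = 0.18, edgeR). *Enpp2*, the autotaxin gene, was at 433 ± 110 CPM in WT and 323 ± 29.3 CPM in CD4/ALK4-KO (log2 fold change -0.42, adjusted p = 0.16, edgeR), and passed the threshold without CD4/ALK4-KO replicate 2 (-0.52, adjusted p = 0.019). *Bst1*, the gene of an NAD-consuming ectoenzyme, was at 101 ± 3.84 and 106 ± 5.20 CPM (adjusted p = 0.81, edgeR).

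Neither the 5 other P2X receptor genes nor the 6 P2Y receptor genes tested held a call in edgeR on the TMM scale, and none had an unadjusted p under 0.05 or a call in DESeq2. *P2rx4*, the most abundant of these 5 P2X genes, was at 51.8 ± 2.53 CPM in WT and 58.0 ± 1.97 CPM in CD4/ALK4-KO libraries (log2 fold change 0.16, SE 0.214, adjusted p = 0.60, edgeR). *P2rx1* (1.32 ± 0.0122 against 2.23 ± 0.174 CPM) and *P2rx6* (1.95 ± 0.277 against 1.56 ± 0.542 CPM) had fewer than 30 counts in every library. *P2ry6*, a receptor for UDP, was at 18.5 ± 4.40 and 26.9 ± 0.462 CPM (adjusted p = 0.12, edgeR), *P2ry14* at 15.1 ± 1.18 and 15.9 ± 3.79 CPM, and *P2ry12* at 12.9 ± 3.05 and 14.8 ± 7.37 CPM. On the T cell receptor scale all 11 of these genes were lower, as were *P2rx7* and 93.3% of all genes tested. The differences between their fold changes and that of *P2rx7* were not tested.

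Of 7 other genes of adenosine transport and clearance, 2 were higher and 1 lower on the TMM scale, and all 7 were lower on the T cell receptor scale. *Slc28a2*, the gene of a sodium-driven purine nucleoside transporter, was at 47.2 and 43.4 CPM in WT and 122 and 98.6 CPM in CD4/ALK4-KO libraries (log2 fold change 1.28, SE 0.219, adjusted p = 0.00011, edgeR). *Slc29a3*, which encodes the lysosomal nucleoside transporter ENT3, was at 15.4 and 15.5 against 38.6 and 47.1 CPM (log2 fold change 1.47, SE 0.244, adjusted p = 7.7e-05, edgeR). These transporters rose on the TMM scale while *Slc29a1* stood at -0.34, and both were below 0 on the T cell receptor scale (-1.08 and -0.88). *Ahcy*, whose product splits S-adenosylhomocysteine into homocysteine and adenosine, was lower, at 84.5 ± 7.99 against 55.3 ± 3.76 CPM (log2 fold change -0.61, SE 0.215, adjusted p = 0.032, edgeR), a call lost without WT replicate 1 (adjusted p = 0.35), WT replicate 2 (0.14) or CD4/ALK4-KO replicate 1 (0.051).

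Of 15 genes of the cAMP response that A2 receptors start, 7 were higher and 2 lower on the TMM scale. *Adcy7*, an adenylyl cyclase gene of leukocytes, was at 72.8 and 86.5 CPM in WT and 164 and 235 CPM in CD4/ALK4-KO libraries (log2 fold change 1.32, SE 0.227, adjusted p = 0.00011, edgeR). *Prkacb*, a catalytic subunit of protein kinase A, was at 186 ± 19.2 and 302 ± 54.4 CPM (log2 fold change 0.70, SE 0.224, adjusted p = 0.019, edgeR), and *Creb1*, the cAMP-responsive transcription factor, at 138 ± 6.20 and 216 ± 54.4 CPM (log2 fold change 0.65, SE 0.225, adjusted p = 0.031, edgeR). Without WT replicate 1 or WT replicate 2 the calls for *Prkacb* (adjusted p = 0.31 and 0.12) and *Creb1* (0.30 and 0.18) were lost, and *Creb1* was at 0.39 (adjusted p = 0.10) without CD4/ALK4-KO replicate 1. The other phosphodiesterase genes of the list that passed, named after their values were seen, were higher on the TMM scale and had negative values on the T cell receptor scale, namely *Pde4d* (11.2 ± 1.45 against 37.3 ± 11.7 CPM, adjusted p = 5.1e-05, edgeR), *Pde4b* (90.8 ± 13.3 against 163 ± 12.2 CPM, adjusted p = 0.0042, edgeR) and *Pde3b* (47.5 ± 1.74 against 75.5 ± 13 CPM, adjusted p = 0.023, edgeR). The call for *Pde4b* was lost without WT replicate 1 (adjusted p = 0.18), and that for *Pde3b* without WT replicate 1 (0.19), WT replicate 2 (0.23) or CD4/ALK4-KO replicate 1 (0.055). The 2 lower genes, also named after their values were seen, were *Prkar2a*, a regulatory subunit of protein kinase A (68.4 ± 7.36 against 41.4 ± 6.04 CPM, adjusted p = 0.015, edgeR), and *Pde4a*, a cAMP phosphodiesterase (9.90 ± 0.428 against 3.76 ± 2.47 CPM, adjusted p = 0.0095, edgeR). The call for *Prkar2a* was lost without WT replicate 1 (adjusted p = 0.25) or WT replicate 2 (0.070), and that for *Pde4a* without WT replicate 1 (0.063) or CD4/ALK4-KO replicate 1 (0.064), where its log2 fold change was -0.82, against -1.39 with all libraries and -2.29 without CD4/ALK4-KO replicate 2.

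Of 7 genes of the inflammasome that P2X7 can trigger, only *Nlrp3* passed the threshold in edgeR on the TMM scale, at 24.7 and 23.6 CPM in WT and 37.3 and 53.1 CPM in CD4/ALK4-KO libraries (log2 fold change 0.90, SE 0.239, adjusted p = 0.0058). Without WT replicate 1 (adjusted p = 0.079) or WT replicate 2 (0.089) its call was lost. *Il1b*, the interleukin-1β gene, was at 465 ± 71.9 and 663 ± 122 CPM (log2 fold change 0.51, adjusted p = 0.078, edgeR), and passed the threshold without CD4/ALK4-KO replicate 1 (0.72, adjusted p = 0.00024). *Nek7*, which encodes a partner of NLRP3, was at 236 ± 3.32 and 217 ± 36.2 CPM (adjusted p = 0.70, edgeR).

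**Figure D5:**
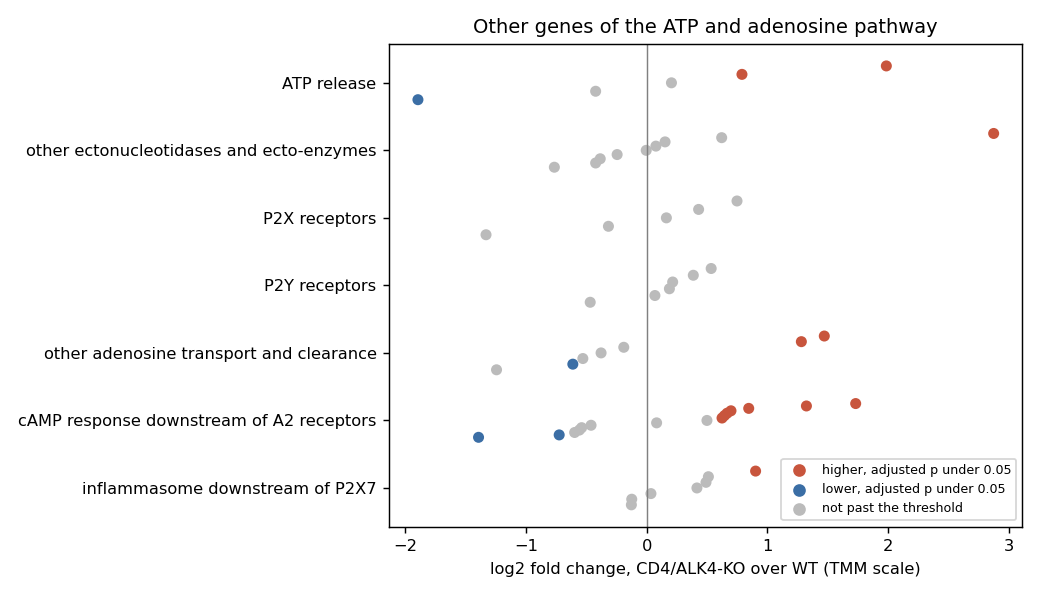
Log2 fold changes on the TMM scale of 54 other genes of the pathway in 7 lists (red, higher; blue, lower; grey, not past the threshold). The 13 higher genes included *Art2b* at 2.88 and *Slc17a9* at 1.99, and the P2X and P2Y lists held no call; on the T cell receptor scale none of the 54 was called higher.

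The patterns of the 5 genes that passed the threshold were compared with those of the 10460 genes whose mean count reached 100, as the Euclidean distance between log2 CPM centred over the 4 libraries. The nearest genes to *P2rx7* were *Endod1* (distance 0.0473), *Nkg7* (0.0526), a gene of cytotoxic granules, and *Rbl2* (0.0651), and 55 genes lay within 0.25. *Nup153* (0.0241), *Vps54* (0.0683) and *Psmb8* (0.0712) were nearest to *Nt5e*, and 165 genes lay within 0.25. For *Entpd1* they were *Dync1li1* (0.0229), *Rbm26* (0.0486) and *Clcn4* (0.0535), with 388 genes within 0.25. *Dpp4* was nearest to *Dusp11* (0.0150), *Suco* (0.0296) and *Angel2* (0.0420), and *Adora2a* to *Dop1b* (0.0666), *Arrb1* (0.0749) and *Ankrd11* (0.0759). With 4 libraries in 2 groups such neighbours mostly share a fold change, and many genes lay nearly as close.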

How the data were processed

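RNA-Seq libraries of lung tumor-infiltrating CD4+ T cells (2 WT, 2 CD4/ALK4-KO) were grouped by their sample titles. According to the methods and labels, the authors checked single-end reads with FastQC, aligned them to mm10 with HISAT2 and counted them with htseq-count (intersection non-empty). They deposited raw counts per gene symbol, with no normalization. Versions, annotation and strand option are not given in the sources used here. Replicates differed by more than sampling noise (chi-square per degree of freedom 16.0 and 28.7), and they are described as biological replicates without saying from which mice, so p-values measure the spread between these libraries.

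Here, edgeR 4.0.16 in R 4.3.3 was used: filterByExpr kept 13919 of 25239 genes, after which TMM factors and a quasi-likelihood model (robust, genotype only) were fitted, with Benjamini-Hochberg adjustment over all genes tested and a threshold of 0.05. SE is the absolute log2 fold change over the square root of F. The script was tested on simulated data. Alternatives were DESeq2 1.42.0, 3 other scalings, 2 other filters, the replicate number as a block and each library left out. Counting error is covered by these fits only as far as the depth of 11823908 to 13943237 counts allows. Positions and exon lengths are from GENCODE M21 (GRCm38), which matched 24366 symbols. The genes and lists were chosen with earlier results of these data known. Named pathway genes were, per list, the 3 with the highest mean CPM among those past the threshold, filled up with the most abundant others where fewer passed. CPM are counts per TMM-adjusted library size. DESeq2 is also named in the submitters' processing notes, without a version.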

Additional observations from a re-analysis of the deposited data

How the results depend on the processing

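Of 108 values of the 9 genes under 12 alternatives, 87 kept their direction and their side of the threshold, 7 were no longer past it, 7 newly passed it and 7 reversed. All 7 reversals came with the T cell receptor scale, at -0.58 (*P2rx7*), -1.14 (*Adora2a*), -1.25 (*Nt5e*), -1.56 (*Dpp4*), -1.64 (*Entpd1*), -1.68 (*Ada*) and -1.74 (*Adora3*), and the median of all genes moved by -2.36 with it. The count of the 9 genes past the threshold changed from 5 higher and 0 lower to 0 and 9 there, ran from 2 to 6 higher and from 0 to 1 lower as each library was left out, and included 1 lower gene with upper quartile scaling. Over all genes, 27 were higher and 12986 lower on the T cell receptor scale, and the counts ran from 1135 to 2917 higher and from 775 to 2583 lower without single libraries, the lowest being those without WT replicate 1, followed by WT replicate 2 (1394 and 1070). The remaining library of a genotype is then assumed to vary like the other group. Of the other pathway genes, 0 were higher and 51 lower on the T cell receptor scale, and without single libraries 6 to 14 were higher and 2 to 8 lower.

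With the replicate number as a block, 4 of the 9 genes were higher and *Entpd1* was lost (0.73, adjusted p = 0.060, edgeR), while 8 pathway genes were higher and 2 lower, and 1768 of all genes were higher and 1444 lower. The labels do not say what the replicate numbers mark, so the numbers were not taken to pair the libraries. Same-numbered libraries deviated from their group means with a correlation of -0.20, which cannot settle a pairing with 2 libraries per genotype. With the numbers crossed, an alternative chosen after seeing the data, 6 of the 9 genes were higher and 1 lower, and 17 pathway genes were higher and 9 lower.

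Among the other genes named, further reversals on the T cell receptor scale were *Panx1* (-1.56), *Slc17a9* (-0.36), *Bst1* (-2.28), *P2rx4* (-2.19), *P2rx1* (-1.60), *P2ry6* (-1.81), *P2ry14* (-2.30), *P2ry12* (-2.17), *Slc28a2* (-1.08), *Slc29a3* (-0.88), *Prkacb* (-1.67), *Creb1* (-1.73), *Crem* (-1.73), *Adcy7* (-1.03), *Pde4d* (-0.60), *Pde4b* (-1.52), *Pde3b* (-1.70), *Nlrp3* (-1.44), *Il1b* (-1.85) and *Acvr1b* (-2.18). Genes near 0 reversed elsewhere. *P2ry14* was at -0.001 with upper quartile scaling. Without single libraries *P2ry14* ran from -0.17 to 0.29, *P2ry12* from -0.41 to 0.63, *P2rx6* from -0.72 to 0.026, *Nek7* from -0.28 to 0.034 and *Acvr1b* from -0.060 to 0.38. The cause of these changes was not tested. Depth limits *Adora3*, *P2rx1* and *P2rx6*, with fewer than 40 counts in every library.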
